A study of Mus musculus with 5 samples.

Results

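Genes of the Notch pathway were followed while mouse bone marrow-derived macrophages became osteoclasts, the multinucleated cells that resorb bone. The set held 10 genes chosen by name: the receptors Notch1, Notch2 and Notch4, the ligand Jag1, the sheddase Adam10, the nuclear proteins Rbpj and Maml1, the target genes Hes1 and Hey1, and the ubiquitin ligase Dtx4. All 10 had a row that named them alone, among 22180 genes with such a row. Bone marrow came from wild-type mice aged 10 weeks, and the macrophages grew on plastic with 20 ng/ml M-CSF, a survival factor of macrophages, and 30 ng/ml RANKL, which triggers osteoclast formation. Arrays were made from cells at day 0 (macrophages before differentiation), at days 1, 2 and 3 (differentiating cells) and at day 5 (cells named mature in the labels), with 1 Affymetrix array for each day and 5 arrays in all. The number of mice is not given in the sources used here. All groups shared the genotype, and no array of macrophages kept without RANKL was part of this comparison, so time in culture and RANKL cannot be told apart. Because a day had a single array, genes were not tested, no p-value is given, and each difference is between those arrays.

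Notch receptors are cell surface proteins that ligands of the Jagged and Delta families on neighbouring cells bind and pull. ADAM10 then cuts the receptor outside the membrane and gamma-secretase cuts it within, which frees an intracellular part that enters the nucleus. There it joins the DNA-binding protein RBPJ and a Mastermind-like coactivator and switches on targets such as the HES and HEY repressors; without it, RBPJ can hold genes silent with corepressors. In osteoclast precursors RBPJ is known as a brake on osteoclast formation, and Notch receptors have been given both inhibiting and promoting roles.

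Values are log2 RMA values, in which a difference of 1 is 2-fold, and differences are the later day minus the earlier one. Array medians lay between 4.88 and 4.92. Genes whose mean over the 5 arrays reached 4.89, the median of the row means, were called measured. There were 12049 of them, and 9 of the 10 Notch genes, all but Hes1. As a yardstick of measurement noise, the differences between days 5 and 0 were compared between 2 rows of one gene. Over 426 genes they disagreed with an SD of 0.60, which comes to 0.42 for 1 row. This leaves out any spread between cultures. It also leaves out error that the rows of one array share, and it counts differences between their probes as noise. By their means, marker genes set day 0 apart from the later days. The mean level of 9 osteoclast markers was 5.92 at day 0, 7.96 at day 1, 10.67 at day 2, 11.83 at day 3 and 11.91 at day 5. Between days 3 and 5, 0 of these 9 passed 2-fold, beside 0.158% of all measured genes higher and 0.116% lower. They thus do not tell the mature cells of day 5 from the cells of day 3. The 8 macrophage markers were all at or above 4.89 on each array. The mean of these 8 was 11.25 at day 0, 9.81 at day 1, 9.61 at day 2, 9.95 at day 3 and 10.20 at day 5. At day 1, 4 of them were at least 2-fold lower (Fcgr1 at -3.61, Mertk at -2.83, Cx3cr1 at -1.80 and Adgre1 at -1.24) and 0 higher. Among all measured genes 4.17% were lower and 2.91% higher. Notch1 and Jag1 were lower on that day too. At day 5, 2 of the 8 were at least 2-fold lower (Fcgr1 at -2.54 and Cx3cr1 at -3.46) and 0 higher, beside 6.56% and 6.78% of all measured genes. The part of these macrophage marker differences in the Notch values was not tested. In RNA from a whole culture, fewer cells that express a gene and less of its RNA per cell cannot be told apart.

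The promoters of the 3 genes that were at least 2-fold lower at day 1 or day 5 are shown first, because RBPJ is a DNA-binding protein and its own gene belongs to them. RefSeq promoters were matched for 7 of the 10 genes, not for Hes1, Hey1 and Dtx4. The sequences are the 250 bases before the annotated start in GRCm38.p6, 5′ to 3′ on the strand of the gene: chr5:53590096-53590345 on the plus strand for Rbpj, which had a second annotated start close by, chr2:26503823-26504072 on the minus strand for Notch1 and chr2:137116521-137116770 on the minus strand for Jag1. Capitals mark the RBPJ core motif TGGGAA or its reverse complement TTCCCA.
Rbpj: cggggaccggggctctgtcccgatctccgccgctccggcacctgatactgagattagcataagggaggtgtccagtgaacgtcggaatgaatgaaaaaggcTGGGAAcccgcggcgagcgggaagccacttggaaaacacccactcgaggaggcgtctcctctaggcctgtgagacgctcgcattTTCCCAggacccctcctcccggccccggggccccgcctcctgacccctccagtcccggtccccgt
Notch1: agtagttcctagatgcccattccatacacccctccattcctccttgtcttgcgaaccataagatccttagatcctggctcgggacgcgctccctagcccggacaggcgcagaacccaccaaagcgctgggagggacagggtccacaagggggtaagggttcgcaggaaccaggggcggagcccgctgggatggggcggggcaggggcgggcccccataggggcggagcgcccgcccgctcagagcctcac
Jag1: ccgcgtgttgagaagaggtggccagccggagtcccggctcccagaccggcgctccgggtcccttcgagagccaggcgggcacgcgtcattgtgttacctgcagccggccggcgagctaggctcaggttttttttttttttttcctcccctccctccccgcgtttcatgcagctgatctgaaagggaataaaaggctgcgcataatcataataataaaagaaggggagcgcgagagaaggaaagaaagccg

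The Rbpj promoter shown held 2 matches to the RBPJ core. One was on the strand of the gene, 149 to 144 bases before the start, and one on the opposite strand, 65 to 60 bases before it. The window before the second annotated start held 1 match, 205 to 200 bases before that start. It is the same site as the one on the opposite strand, so the number of matches depends on the start. The promoters of the other 6 genes held no match to those letters. Of 32851 RefSeq promoter windows of the same length, 21.6% held at least 1 match on either strand. The E-box CACGTG, a motif class that HES, HEY and MYC family proteins can bind, was matched in 1 of the 7 genes, Adam10, 64 to 59 bases before its start, and in 6.02% of all windows. The AP-1 motif TGACTCA (reverse complement TGAGTCA) was searched because RANKL activates AP-1; it was matched in none of the 7 and in 4.46% of all windows. These matches are letters in a window, and no binding was measured.

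At day 5, Notch1 and Rbpj were at least 2-fold lower than at day 0, Dtx4 was at least 2-fold higher, and the other 6 measured genes were neither. Among all 12049 measured genes, 6.78% were at least 2-fold higher and 6.56% at least 2-fold lower in this comparison. The median difference of the 9 measured Notch genes was -0.64 and that of all measured genes 0.00. In sign, 7 of the 9 lay below 0 and 2 above. Counts by sign, here and by role below, have no share of all measured genes beside them and describe the listed genes alone. The members were not drawn at random, were chosen with earlier results of these data known, and are few. The counts and the median therefore describe these 9 genes.

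**Figure D1:**
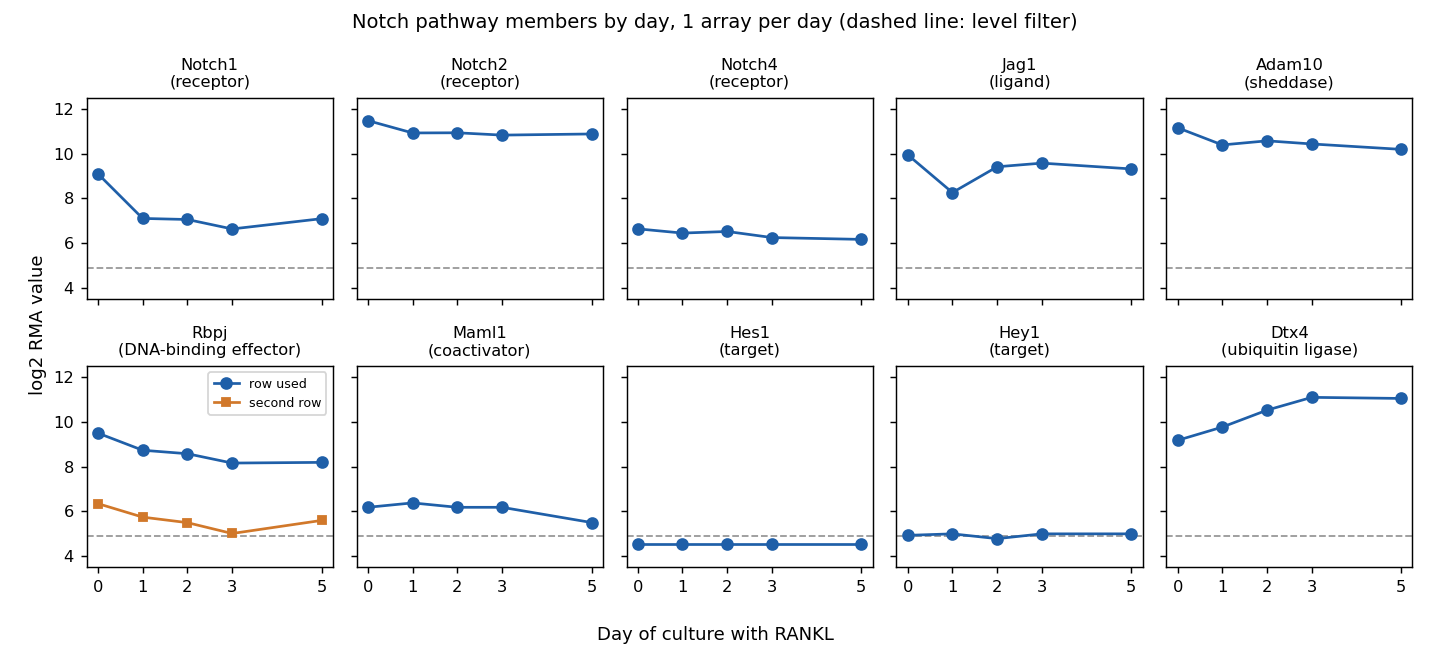
The log2 RMA value of each Notch gene (vertical axis) is plotted against the day of culture (horizontal axis), with 1 array per point, the second row of Rbpj in orange and the level filter of 4.89 as a dashed line. Notch1 drops between days 0 and 1 and stays low, Jag1 has its lowest point at day 1, Rbpj steps down until day 3, Dtx4 climbs until day 3, and Hes1 lies flat at 4.56.

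Among the receptors, Notch1 had the largest decrement. Its log2 values were 9.10 at day 0, 7.10 at day 1, 7.06 at day 2, 6.63 at day 3 and 7.09 at day 5. The day 0 array stood apart and the other 4 lay within 0.47 of each other. The difference was -2.00 at day 1 and -2.01 at day 5, 4.03-fold lower, and 90 of the 12049 measured genes had a lower difference at day 5. With day 1 as the starting point Notch1 was at -0.01 at day 5, so its whole decrement lay between the arrays of days 0 and 1.

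Notch2, the receptor best known from B cell and myeloid biology, was lower by less. It held 11.49 at day 0, 10.93 at day 1, 10.94 at day 2, 10.84 at day 3 and 10.89 at day 5. Again the day 0 array was the highest and the later 4 lay close together, with a difference of -0.60 at day 5 and -0.05 against day 1. This is about the size of the SD of 0.60 between 2 rows and above the 0.42 for 1 row, and 1634 measured genes had a lower difference.

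Notch4, a receptor best known from blood vessel endothelium, held 6.64, 6.45, 6.52, 6.25 and 6.17 at days 0, 1, 2, 3 and 5. Its difference of -0.47 at day 5 was close to the yardstick of 0.42 for 1 row, and its largest step between sampled days was -0.27. Endothelial markers were checked beside it: 3 of 8 were measured (Cdh5, Kdr and Vwf), and Pecam1, Tek, Tie1, Emcn and Cldn5 were below the filter. The mean of the 8 was 4.80 at day 0, 4.56 at day 1, 4.67 at day 2, 4.93 at day 3 and 5.07 at day 5. Its 3 measured genes took different courses, with Cdh5 at -1.29, Kdr at -0.21 and Vwf at 1.87 at day 5. Their part in the values of Notch4 was not tested. The remaining receptor, Notch3, which was not in the set, held 4.66 on all 5 arrays and was below the filter.

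Jag1, a transmembrane ligand of the Jagged family, had a dip at day 1. Its values were 9.96 at day 0, 8.26 at day 1, 9.42 at day 2, 9.58 at day 3 and 9.32 at day 5. The day 1 array was the low one, at -1.69 against day 0 (3.24-fold lower), and day 2 was 1.15 above day 1 (2.23-fold). At day 1, Jag1 and Notch1 were the 2 Notch genes at least 2-fold lower than at day 0 and 0 of the 9 were higher, with 4.17% of all measured genes lower and 2.91% higher. Between days 1 and 2 Jag1 alone of the 9 passed 2-fold, upwards, where 2.46% of all measured genes did so and 0.556% passed it downwards. By day 5 Jag1 stood at -0.64 against day 0 but 1.06 above day 1, so its sign depends on the starting day. Stromal cells can express Jag1, and of 8 stromal markers 7 had a row, 3 were measured and Col1a2, Pdgfra, Alpl and Sp7 were below the filter. Their mean level was 4.66 at day 0, 5.14 at day 1, 5.06 at day 2, 5.12 at day 3 and 5.00 at day 5, and the higher mean at day 1 came mostly from Dcn, a proteoglycan gene, at 5.20, 8.45, 8.44, 7.99 and 7.13. The other measured ones, Col1a1 and Pdgfrb, were at -0.09 and 0.00 at day 1. The part of these cells in the values of Jag1 was not tested.

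The other canonical ligands gave low values. Jag2, Dll1, Dll3 and Dll4 were all below the filter, and their differences at day 5 were -0.42, 0.00, -0.24 and 0.08. Jag1 was thus the 1 canonical ligand of 5 that counted as measured on these arrays. Outside the canonical ligands, Dner was measured too, with 6.44 at day 0, and stood at -0.97 at day 3 and -0.84 at day 5. Dlk1 and Dlk2 were below the filter.

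Adam10, the metalloprotease that makes the first cut in ligand-bound Notch and also cuts many other surface proteins, fell just short of 2-fold at day 5. It held 11.17 at day 0, 10.40 at day 1, 10.58 at day 2, 10.44 at day 3 and 10.20 at day 5. The day 0 array was the highest and day 5 the lowest, with a difference of -0.77 at day 1 and -0.97 at day 5 (1.96-fold lower). Against day 1 it was at -0.20, so most of its decrement was present at day 1.

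Rbpj had 2 rows, and both were lower on every later day than at day 0. The row with the higher mean, used throughout, held 9.50 at day 0, 8.73 at day 1, 8.58 at day 2, 8.16 at day 3 and 8.19 at day 5. The second row held 6.35, 5.74, 5.49, 5.01 and 5.59. Each step down to day 3 had the same sign in both rows, and at day 3 they were at -1.34 and -1.34 against day 0. They parted between days 3 and 5, with 0.03 in the first and 0.59 in the second, so at day 5 the first stood at -1.31 (2.48-fold lower) and the second at -0.75. The 2-fold count of Rbpj at day 5 therefore rests on the first row. Against day 1, Rbpj was at -0.57 at day 3 and -0.54 at day 5 in the first row, and at -0.73 and -0.15 in the second. Notch1 was at -0.47 and -0.01 on the same days.

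Maml1, a Mastermind-like coactivator that bridges Notch, RBPJ and histone acetyltransferases, held 6.18 at days 0, 2 and 3, 6.38 at day 1 and 5.50 at day 5. The day 5 array was the low one, at -0.68 against days 0 and 3. Equal values on 3 arrays are a known product of the median step in RMA. Its paralogues Maml2 and Maml3 were at -0.67 and -0.65 at day 5, but along another course: Maml2 was at -1.40 at day 1, and Maml3 at -0.65.

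The target genes Hes1 and Hey1 encode repressors that are the usual readouts of Notch activity. Hes1 held 4.56 on all 5 arrays and lay below the filter. It was 1 of 859 among the 10131 genes below the filter (8.48%) that held the same value on all arrays, against 145 of the 12049 above it (1.20%). The row of Hes1 thus offers no difference between days to read. Hey1, just above the filter, held 4.92 at day 0, 4.78 at day 2 and 4.99 at days 1, 3 and 5, a range of 0.22. Hes2, Hes5, Hey2, Heyl and Nrarp, a Notch-induced inhibitor of Notch, were below the filter too. Hes3, Hes6 and Hes7 were measured and stood at 0.05, 0.15 and 0.00 at day 5. Hes3 and Hes7, with means of 5.11 and 4.93, lay near the filter as Hey1 did. None of these 10 HES, HEY and Nrarp rows differed by 2-fold between day 0 and a later day.

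Dtx4, a Deltex family ubiquitin ligase that has been linked to Notch endocytosis and to turnover of the kinase TBK1, was the 1 member at least 2-fold higher than at day 0. It held 9.18 at day 0, 9.77 at day 1, 10.53 at day 2, 11.10 at day 3 and 11.05 at day 5. Each array up to day 3 was higher than the one before, by 0.60, 0.76 and 0.57, and day 5 was at -0.05 against day 3. The difference was 1.88 at day 5 (3.67-fold higher), and 273 measured genes had a higher one. Against day 1 it was still 1.28 higher. In its family, Dtx2 stood at 0.54 at day 5 with a peak of 1.12 at day 2, Dtx3 at -0.76, and Dtx1 was below the filter with 4.78 on all arrays.

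**Figure D2:**
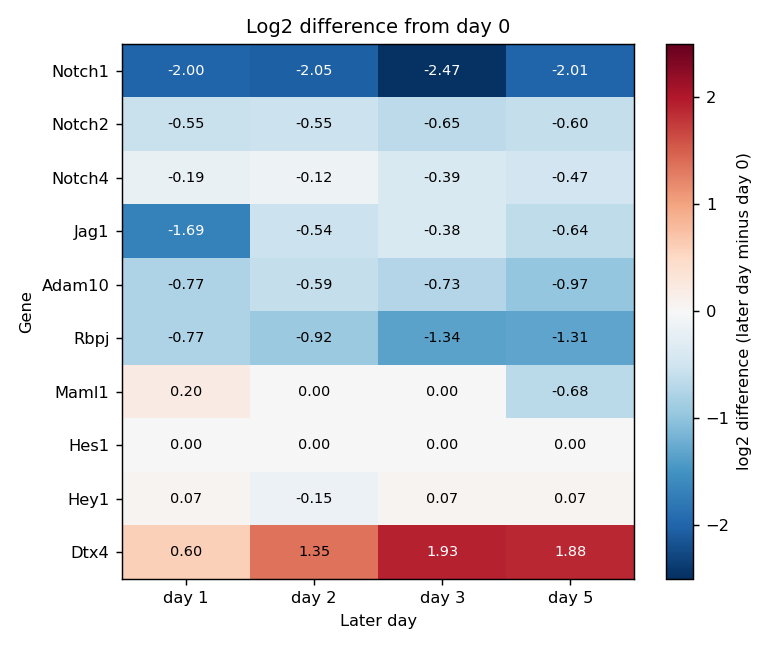
Each cell gives the log2 difference of a Notch gene (rows) on a later day (columns) from day 0, from single arrays, with blue for lower and red for higher. Notch1 lies between -2.00 and -2.47 on all 4 later days, Rbpj passes -1 at days 3 and 5, Jag1 does so at day 1 alone, and Dtx4 passes 1 from day 2 on.

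At day 2, Dtx4 was at least 2-fold higher than at day 0 and Notch1 lower, beside 5.18% of all measured genes higher and 5.25% lower. At day 3, Dtx4 was higher and Notch1 and Rbpj lower, beside 7.29% and 7.5%. Between days 2 and 3, and between days 3 and 5, 0 of the 9 genes passed 2-fold in either direction. All measured genes gave 2.08% higher and 3.91% lower in the first of these steps, and 0.158% and 0.116% in the second. The largest steps of the set in these intervals were Dtx4 at 0.57 between days 2 and 3, and Maml1 at -0.68 between days 3 and 5. Against day 1, at day 5, Dtx4 and Jag1 were at least 2-fold higher and 0 of the 9 lower, beside 6.3% and 6.73% of all measured genes. The comparisons with day 0 share that array, so their values are not independent of each other.

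A wider list of 73 pathway genes, the 10 included, was set beside the members. It had 68 genes with a row and 52 measured. At day 5, 1 was at least 2-fold higher (Dtx4), 3 lower (Notch1, Rbpj and Tle3) and 48 neither, with a median of -0.02, beside 6.78% higher and 6.56% lower among all measured genes. Apart from the members, 0 of 43 were higher and 1 lower, and their median was 0.00. The lower one was Tle3, a Groucho family corepressor, at -1.02, close to 2-fold. Each centring of the arrays tried took it out of the count: on all measured genes, on the median of reference genes and on their mean. At day 1 the wider list had 1 higher, the ubiquitin ligase Neurl1b (1.00), and 5 lower, beside 2.91% and 4.17% of all measured genes. These were Notch1, Jag1, Maml2 (-1.40), Tle3 (-1.39) and Aph1c (-1.01), a gamma-secretase subunit.

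By role, 0 of the 9 receptor cleavage genes passed 2-fold at day 5. Beside Adam10, the related sheddase Adam17 was at -0.81. The gamma-secretase genes Ncstn, Aph1a and Psenen were at 0.16, -0.06 and 0.02, and Psen2 and Aph1c at 0.33 and 0.50. All 5 genes of Notch glycosylation were at or below 0, between -0.65 (Mfng, a Fringe glycosyltransferase) and 0.00 (Lfng), and 0 passed 2-fold. Of the 8 nuclear activators 6 lay below 0, 1 above and 1 at 0, with a median of -0.66, and Rbpj alone passed 2-fold. The 11 corepressors had a median of 0.00, with the histone deacetylases Hdac2 at 0.71 and Hdac1 at -0.85. The list also held Kyat1, at 0.85, which encodes a kynurenine aminotransferase and is not a known Notch corepressor; it was left in the counts, where it was neither higher nor lower. Among 10 measured genes of trafficking and turnover the median was 0.00, and Neurl1b, at -0.99, was the lowest.

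**Figure D3:**
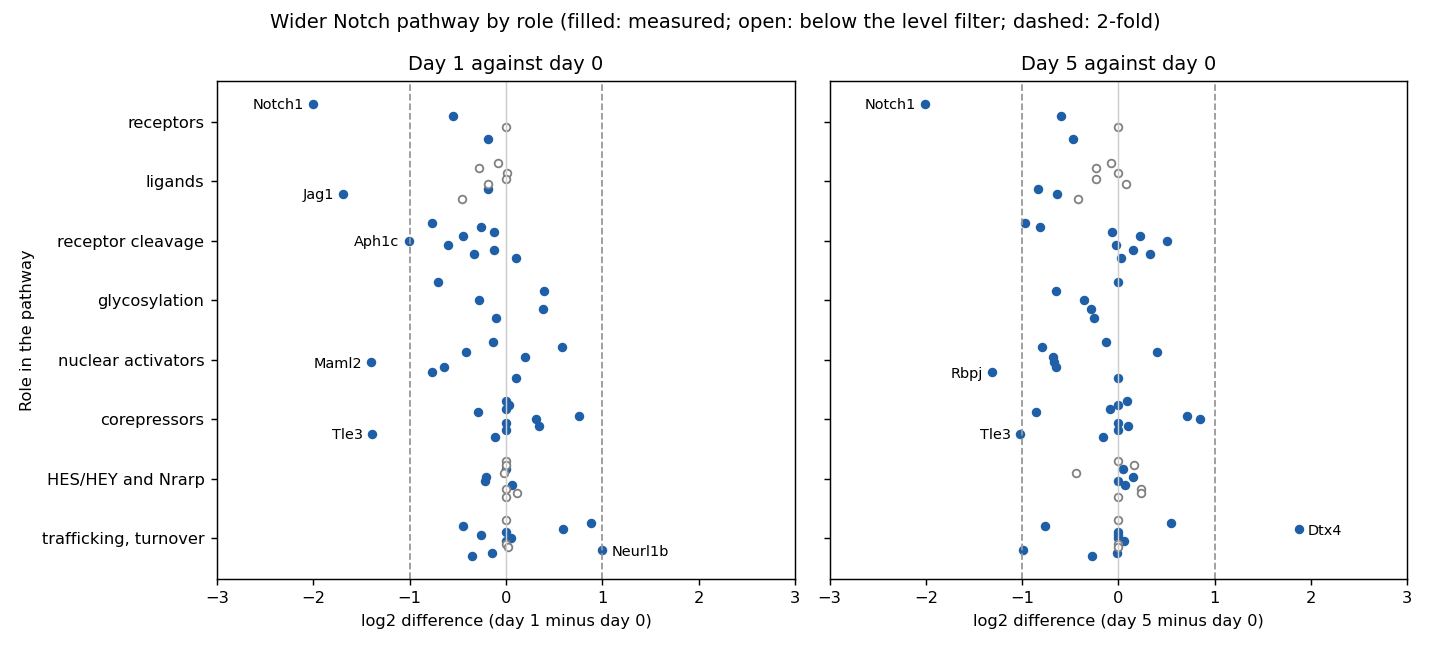
Each point is a gene of the wider Notch list, placed by its role (rows) and by its log2 difference from day 0 at day 1 (left) and day 5 (right), with filled points for measured genes, open points for genes below the filter and dashed lines at 2-fold. Most points lie within 2-fold, and the named ones are the 6 of 52 past it at day 1 and the 4 of 52 at day 5.

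Rbpj was next set beside 7 genes that earlier work has linked to it in osteoclast precursors. Irf8, an interferon regulatory factor that restrains osteoclast formation, was lower as well, with 9.17 at day 0, 7.39 at day 1, 6.80 at day 2, 7.73 at day 3 and 7.84 at day 5. Prdm1, which encodes the repressor BLIMP1, held 7.15, 9.35, 10.05, 10.15 and 9.71, and was 2.56 higher at day 5. Nfatc1, the leading transcription factor of osteoclast formation, held 7.65, 9.14, 9.98, 9.88 and 9.41, and was 1.76 higher. Both had most of their increment at day 1, when Rbpj was at -0.77. The TGF-beta receptor gene Tgfbr1 was at -0.81 at day 1 and 1.49 at day 5. Myc was at 1.25 at day 1 and -0.78 at day 5. Fos, an AP-1 subunit, was at 0.68 and -0.18 on these days, and the phospholipase gene Plcg2 at -0.30 on both. In all, 3 of the 7 were at least 2-fold higher at day 5 (Nfatc1, Prdm1 and Tgfbr1), 1 was lower (Irf8) and 3 were neither, beside 6.78% higher and 6.56% lower among all measured genes. These 7 were chosen for known roles in osteoclast formation.

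**Figure D4:**
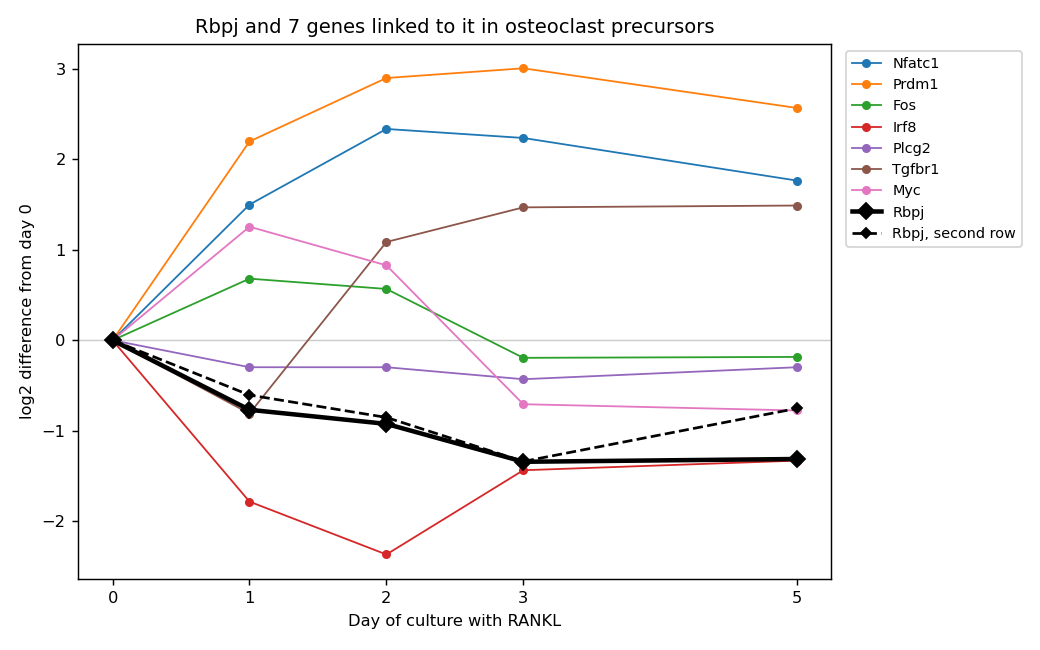
The log2 difference from day 0 (vertical axis) is plotted by day (horizontal axis) for Rbpj in black, its second row dashed, and for 7 genes linked to RBPJ in colour, with 1 array per point. Prdm1 and Nfatc1 lie above 0 on all later days, Irf8 and both rows of Rbpj below it, and Tgfbr1 changes sign between days 1 and 2.

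The measured genes closest in course were sought for the 4 members that spanned at least 1 on the log2 scale, by the root mean square difference between courses centred on their own means over the 5 arrays. For Notch1 these were Id1 (0.07), an inhibitor of helix-loop-helix factors, the phosphatase gene Ssh2 (0.08) and the complement receptor gene C5ar1 (0.11). Each had its decrement at day 1, by -2.13, -1.84 and -1.68. For Rbpj they were Wsb1 (0.05), Dennd4a (0.06) and Dennd4b (0.07), which stood at -1.16, -1.22 and -1.26 at day 5. For Dtx4 they were Tank (0.05), an adaptor that binds TRAF proteins and TBK1, Supt3 (0.06) and Ncoa4 (0.07), the receptor that delivers ferritin to autophagy, at 1.88, 1.72 and 1.78 at day 5. For Jag1 they were Batf2 (0.16), Maml2 (0.18) and Myl6b (0.19), all lowest at day 1 and with a looser match. A short course over 5 arrays is shared by many genes, and closeness was taken as description.

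Markers of neutrophils, which can persist in marrow cultures, had a mean of 7.15 at day 0, 7.27 at day 1, 6.32 at day 2, 6.58 at day 3 and 6.07 at day 5 over 7 genes, all measured. Their part in the later values of the Notch genes was not tested. Of 5 T cell markers with a row 1 was measured (Cd4), and of 4 B cell markers 0, with means between 3.98 and 4.23 on all arrays. Dendritic cell markers had 3 of 5 measured, with means between 4.91 and 5.14, and Flt3 and Zbtb46 were below the filter.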

How the data were processed

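Mouse cells of 5 days were measured with 1 Affymetrix array each. The authors' deposited log2 values come from RMA (background correction, quantile normalisation, median polish), and the submitters' processing notes name oligo and R 3.4.0. Quantile normalisation hides a shift of all genes, median polish gives exact ties, and differences near background are understated. Neither the summary level nor the genome build is given in the sources used here. Of 41345 rows 23521 named 1 gene in the platform annotation, 1814 several and 16010 none, and the last 2 kinds were left out. All 10 Notch symbols matched RefSeq by Entrez identifier. Where a gene had several rows, the brightest one by mean was kept. Differences between arrays were counted at 2-fold beside the share of all measured genes, with no test, since each day had 1 array. The members, lists and alternatives were chosen with earlier results of these data known. Named were all members, the receptors, canonical ligands, HES and HEY genes and genes linked to RBPJ, the 5 measured genes of the wider list with the largest difference each way at day 5, and the 3 closest courses per member, leaving out predicted genes, small RNA genes and receptor or immunoglobulin clusters. Others that illustrate a role were named after their values were seen. The counting was tested on simulated data with large planted shifts and little noise, which checks the code and not the noise of these arrays. Promoters are RefSeq windows of GRCm38.p6, searched on both strands. Software was Python 3.11.15, pandas 2.3.3, numpy 2.4.6 and matplotlib 3.10.9.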

Additional observations from a re-analysis of the deposited data

How the results depend on the processing

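No paired analysis was possible because each day had 1 array. The signs of Notch1, Rbpj and Dtx4 at day 5 against day 0 were kept under each scaling, row rule and level filter tried, and with day 3 in place of day 5. Much of this was fixed in advance. Scaling moved all genes by 0.20 at most, the filter leaves a gene's difference as it is, and Notch1 and Dtx4 had 1 row each. The row rule for Rbpj and the swaps of day alone could have changed a sign. With day 1 in place of day 0, Rbpj was at -0.54 and Dtx4 at 1.28, while Notch1 was at -0.01, too near 0 to read a sign. With day 1 in place of day 0 the members had 2 higher (Dtx4 and Jag1) and 0 lower genes and a median of -0.046. The wider list had 3 higher and 3 lower (Kat2a, Mfng and Neurl1b) of 52 measured. All measured genes then gave 6.3% higher and 6.73% lower. The 2-fold count of lower members thus rests on the day 0 array. Taking the row with the lowest mean left 1 lower member, since Rbpj was then at -0.75. At 1.5-fold the members had 6 lower at day 5, and 1 higher and 4 lower at day 1, and the wider list 3 higher and 16 lower at day 5. All measured genes then gave 13.3% higher and 14.0% lower at day 5, and 9.75% and 9.79% at day 1. At 3-fold 1 member was higher (Dtx4) and 1 lower (Notch1) at day 5, and these were also the only genes of the wider list counted. All measured genes then gave 3.14% higher and 2.22% lower. At day 1, 0 members were 3-fold higher and 2 lower, beside 0.797% and 1.34% of all measured genes. Centring arrays on the median of 11 reference genes moved the median of all measured genes by 0.20, changed the counts over all genes from 817 higher and 791 lower to 1122 and 549, and gave the wider list 2 higher genes, the second being Kyat1. Members kept their counts, with Notch1 at -1.81, Rbpj at -1.11 and Dtx4 at 2.08, which relative to that shift are the differences already given. The median of the wider list was 0.18 under it, against -0.02. Centring on the mean of those genes, chosen after seeing the data, moved all genes by 0.03 and gave 853 and 754. Of 78 alternative values of single members 69 moved by less than 0.42, the SD for 1 row, and 9 by more. Most of the 78 could not move that far, so the 69 are no measure of stability. Neither the scaling, the filter nor, for members with 1 row, the row rule could do it. The 9 came from the lower row of Rbpj or from a swap of day. A change of sign was looked for in Notch1, Rbpj and Dtx4 alone, and 0 were found. Jag1, not 2-fold at day 5, went from -0.64 to 1.06 with day 1 in place of day 0. The number of arrays limits every value, and rows near the filter (such as Hes1, Hey1, Hes3 and Hes7) cannot show small changes.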
